A study of Mus musculus with 8 samples.

Results

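The genes described here are 10 targets of the tumour suppressor p53 that act in cell cycle arrest, mitosis and feedback on p53 itself: Cdkn1a, Gadd45a and Btg2 (arrest), Ccng1 and Mdm2 (feedback), Gtse1, Psrc1 and Plk2 (mitosis and the G2 phase), and Sesn1 and Sesn2 (restraint of the growth kinase complex mTORC1). They were taken by symbol from a list of 10 names among the 23337 symbols in each table, and all 10 were found in all 8 libraries and averaged at least 1 TPM over the libraries, as did 11786 symbols in all. TPM is a length-corrected share of transcripts with an equal total per library. The members were selected on measured values, since the list was drawn up with the TPM differences between knockout and wild type in view, so those differences are described below without being used as a test.

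The samples were naive T cells, sorted as CD62L+CD44low, from mLNs and spleens of mice aged 4 weeks. The groups were CD4 KO and CD8 KO, from CD4-cre Trappc1 cKO mice, and CD4 WT and CD8 WT, from WT mice, with 2 libraries each. CD4-cre drives the recombinase from the Cd4 promoter, which is active in thymocytes that give rise to both lineages. Whether the WT mice carried the Cre, which part of Trappc1 is deleted, and whether replicates came from separate mice is not stated in the labels, so each p-value reflects only how far these libraries spread, and that spread may be technical. Trappc1 is a shared subunit of the vesicle-tethering TRAPP complexes, and the title of the series concerns its role in the survival of naive T cells.

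The protein p53 is held low in resting cells by Mdm2, a ubiquitin ligase that p53 itself induces. When DNA damage or another stress stabilises p53, it binds paired 10-base elements near its targets. Cdkn1a, which encodes the kinase inhibitor p21, then blocks cyclin-dependent kinases, the sestrins restrain mTORC1, and Mdm2 brings p53 down again. Several of the same genes also answer to other signals: Gadd45a, Btg2 and Plk2 are induced by growth factors or stress, and Sesn2 is a target of the stress factor ATF4.

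The promoters of the members, taken from RefSeq on GRCm38.p6 as 250 bases before to 50 after each annotated start, were searched on both strands for the p53 half-site of 10 bases, with no mismatch. Positions count the start site as base 1. All 10 members matched, through 14 windows. A half-site lay in a window of 6 of the 10 members, against 9.55% of the 26994 genes with a window, and in 0 of the 11 family relatives found in that table. A paired site of 20 bases with no spacer and at most 1 mismatch lay in the windows of 3 members, Cdkn1a, Ccng1 and Gtse1, against 0.107% of those genes. The stretches below are shown because they carry these matches. Capitals mark the bases that match the half-site or the paired site.

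Cdkn1a, chr17:29090891-29090950, plus strand, bases -88 to -29: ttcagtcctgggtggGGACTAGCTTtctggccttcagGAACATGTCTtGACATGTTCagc
Ccng1, chr11:40755437-40755496, minus strand, bases -210 to -151: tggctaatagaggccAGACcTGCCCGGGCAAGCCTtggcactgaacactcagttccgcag
Gtse1, second start, chr15:85859945-85859964, plus strand, bases -1 to 19: GAGCAAGTTgGGGCTTGCCT
Mdm2, chr10:117710900-117710959, minus strand, bases -201 to -142: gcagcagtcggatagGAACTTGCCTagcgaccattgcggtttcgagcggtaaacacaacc
Gadd45a, chr6:67037408-67037467, minus strand, bases -60 to -1: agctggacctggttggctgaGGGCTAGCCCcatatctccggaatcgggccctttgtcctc
Sesn1, second start, chr10:41887251-41887310, plus strand, bases -188 to -129: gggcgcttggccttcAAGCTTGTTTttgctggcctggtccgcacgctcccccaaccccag

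In Cdkn1a the paired site ran from -51 to -32, with a further half-site at -73. In Ccng1 it ran from -195 to -176, and in Gtse1 it began at -1 of the second start. Mdm2, Gadd45a and Sesn1 held a single half-site. The windows of Psrc1, Plk2, Btg2 and Sesn2 held none, which says only that these letters are not within them. The cAMP response element TGACGTCA, present in windows of 2.03% of genes, was found in those of Plk2 and Btg2, shown next in capitals.

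Plk2, chr13:110394967-110395026, plus strand, bases -77 to -18: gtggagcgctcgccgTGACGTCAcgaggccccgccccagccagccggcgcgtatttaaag
Btg2, chr1:134079277-134079336, minus strand, bases -181 to -122: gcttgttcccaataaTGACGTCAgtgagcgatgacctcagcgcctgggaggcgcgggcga

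Of the other motifs searched, the NF-Y box CCAAT lay in windows of 8 of 10 members (41.0% of genes) and the GC box GGGCGG in 8 of 10 (38.2%). The forkhead site GTAAACA lay in those of Mdm2 and Sesn1 (4.05% of genes), and neither TATAAA (15.7%) nor the cell cycle element TTTGAA (20.2%) lay in any. These are matches of letters and no measure of binding.

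**Figure D1:**
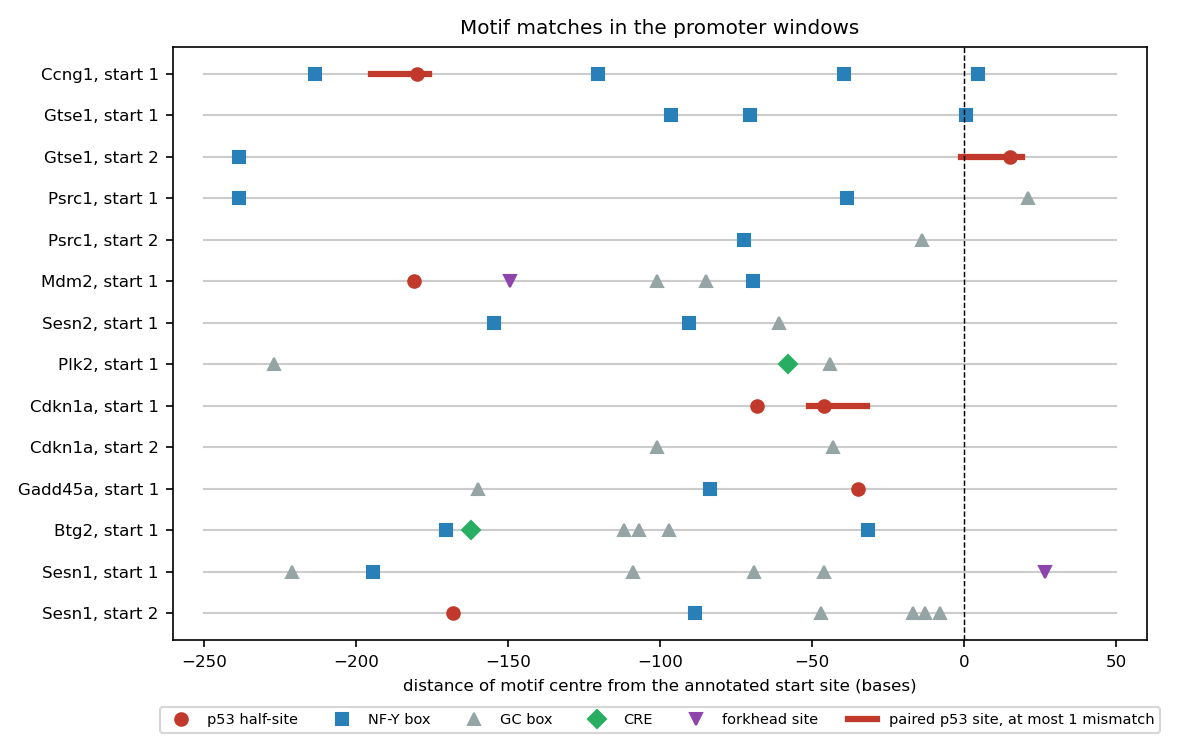
Motif matches in the 14 promoter windows of the 10 genes; the x axis gives the distance of a motif's centre from the annotated start in bases, points are single motifs and thick red lines are paired p53 sites with at most 1 mismatch. Paired sites appear in 3 genes, Ccng1, Gtse1 and Cdkn1a.

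One library has to be named before the values. In the library labelled CD8 WT replicate 2, markers of other cell types were far above those of CD8 WT replicate 1: 30440 against 686 TPM over 14 myeloid genes (14 of 14 higher), 92100 against 2212 TPM over 8 erythroid genes (7 of 8 higher) and 26090 against 2035 TPM over 11 B cell genes (10 of 11 higher). The 14 naive T cell markers summed to 6743 TPM in it and to 15880 TPM in replicate 1. In the other libraries Cd8a was at 418 to 548 TPM in CD8 cells and at 1.28 to 4.10 TPM in CD4 cells, and in CD8 WT replicate 2 it was at 163 TPM. The members' CD8 differences between KO and WT are therefore given with both WT libraries and with CD8 WT replicate 1 alone. Myeloid markers also differed between the CD4 groups, at 1372 and 2259 TPM in CD4 KO against 283 and 99.2 TPM in CD4 WT, with 10 of 14 higher in both KO libraries. In CD8 KO they summed to 1209 and 1603 TPM, against 686 TPM in CD8 WT replicate 1, so this sum too was higher in KO. In the fit 14 of 14 were higher in CD4 KO, with a median difference of 2.45. Fitted against replicate 1 alone, 11 of 14 were higher in CD8 KO, with a median difference of 0.28. Erythroid markers summed to 398 and 242 TPM in CD4 KO, against 61.0 and 149 TPM in CD4 WT, and to 244 and 383 TPM in CD8 KO, against 2212 TPM in CD8 WT replicate 1. The neutrophil gene Mpo was among the myeloid genes that overlapped between the CD4 groups. It was at 21.1 TPM and listed at 0 in CD4 WT, against 3.17 and 8.41 TPM in CD4 KO. In CD8 KO it was listed at 0 and at 13.35 TPM, against 22.7 TPM in CD8 WT replicate 1. B cell markers summed to 7232 and 6695 TPM in CD4 KO, against 15570 and 11550 TPM in CD4 WT, and to 2075 and 2687 TPM in CD8 KO. The part of these other cell types in the levels below was not tested. Thymocyte markers summed to at most 9.67 TPM in any library. In bulk samples, fewer cells of a type and less RNA per cell cannot be told apart.

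Trappc1 itself was at 30.5 and 32.8 TPM in CD4 KO, against 78.7 and 55.0 TPM in CD4 WT (log2 difference -1.03 ± 0.40 SE, limma adjusted p = 0.235). In CD8 cells it was at 56.9 and 45.6 TPM in KO, against 81.2 and 40.3 TPM in WT (-0.16, adjusted p = 0.869). The sign of that difference rested on which WT library was kept, at -0.66 with replicate 1 alone and 0.33 with replicate 2 alone (adjusted p = 0.376 and 0.535). Trp53, which encodes p53, was at 534 and 460 TPM in CD4 KO and 416 and 460 TPM in CD4 WT (0.18, adjusted p = 0.836). In CD8 cells it was at 458 and 555 TPM in KO and 452 and 222 TPM in WT (0.67, adjusted p = 0.403, and 0.16 with replicate 1 alone, adjusted p = 0.760). With both WT libraries or replicate 1 alone the mRNA of p53 was thus not called in CD8 cells. With replicate 2 alone it was called higher (1.18, adjusted p = 0.0154).

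The 10 genes fell into different patterns over the 4 groups. Ccng1, Gtse1 and Psrc1 were high in all 4 KO libraries and low in all 4 WT libraries. Mdm2, Sesn2, Plk2, Cdkn1a and Gadd45a were high in both CD4 KO libraries but also in CD8 WT replicate 2. Btg2 and Sesn1 were abundant in every library, and their KO and WT libraries overlapped in both lineages. These groupings were made after the values were seen.

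**Figure D2:**
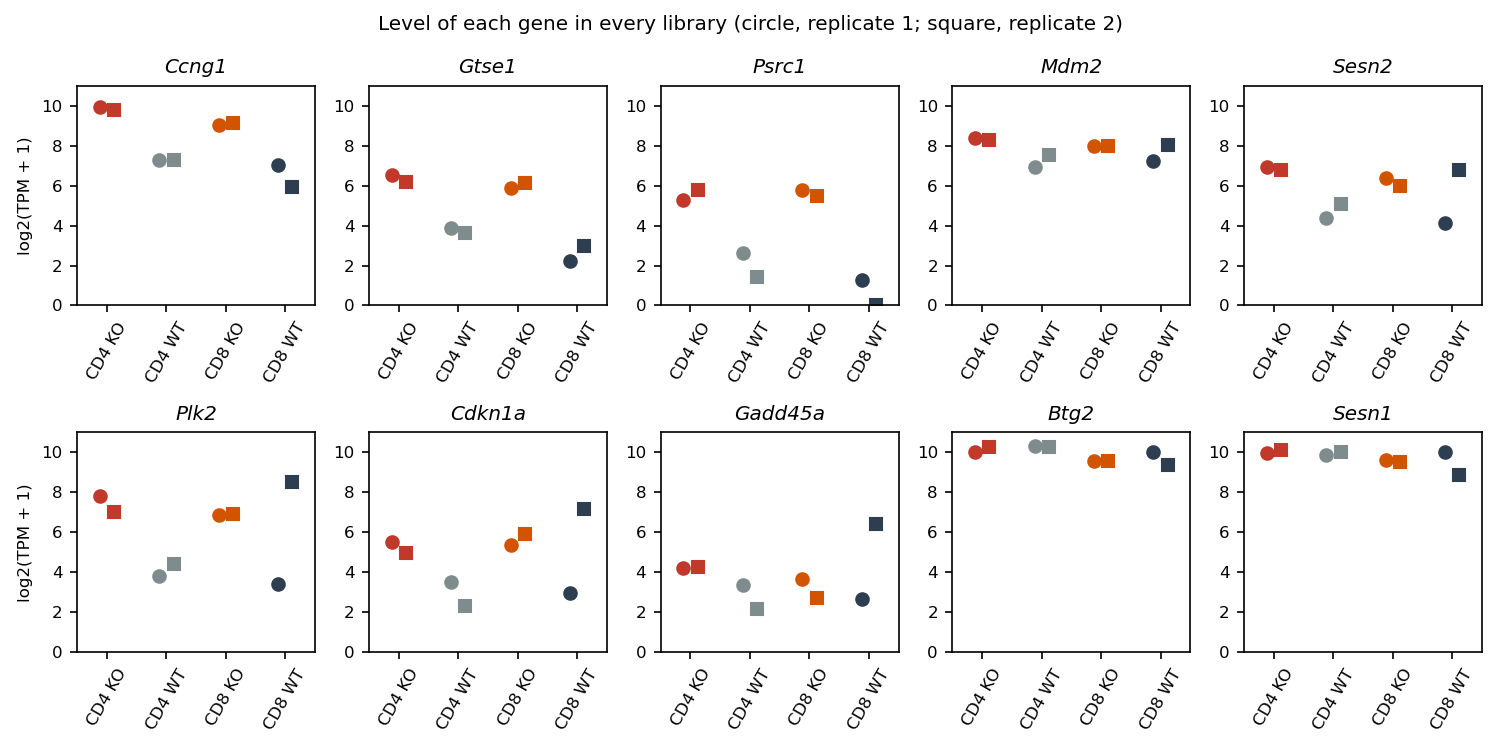
Level of each of the 10 genes in every library, as log2(TPM + 1), with CD4 KO, CD4 WT, CD8 KO and CD8 WT from left to right; circles are replicate 1 and squares replicate 2. Ccng1, Gtse1 and Psrc1 separate all KO from all WT libraries, while for Plk2, Cdkn1a and Gadd45a the highest point is CD8 WT replicate 2.

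Ccng1 (chromosome 11, 40748552 to 40755286, minus strand, mm10, as the files give positions) encodes cyclin G1, which recruits a phosphatase to Mdm2. It stood at 999 and 873 TPM in CD4 KO, against 158 and 153 TPM in CD4 WT. In CD8 cells it stood at 533 and 566 TPM in KO, against 132 and 61.4 TPM in WT. No KO library overlapped a WT library in either lineage, and the fitted differences were 2.58 ± 0.36 in CD4 and 2.59 ± 0.36 in CD8 cells on the log2(TPM + 1) scale (SE). Against CD8 WT replicate 1 alone the CD8 difference was 2.05.

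Gtse1 (chromosome 15, 85859707 to 85876573, plus strand) encodes a microtubule-associated protein of the G2 and S phases that binds p53 and takes part in its export and turnover. It was at 91.9 and 71.1 TPM in CD4 KO, against 13.8 and 11.2 TPM in CD4 WT. CD8 KO cells held 58.7 and 68.7 TPM, against 3.68 and 6.81 TPM in CD8 WT. The groups did not overlap in either lineage. The differences were 2.61 ± 0.41 in CD4 and 3.42 ± 0.41 in CD8 cells. Against CD8 WT replicate 1 alone the CD8 difference was 3.78.

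Psrc1 (chromosome 3, 108383804 to 108388231, plus strand) encodes a spindle microtubule protein, known in mouse as the p53-activated gene DDA3. It was at 37.4 and 54.4 TPM in CD4 KO, against 5.26 and 1.69 TPM in CD4 WT. The CD8 KO level was 53.5 and 43.6 TPM, against 1.42 TPM in CD8 WT replicate 1, and it was listed at 0 in CD8 WT replicate 2. Again every KO library lay above every WT library, with differences of 3.49 ± 0.61 in CD4 and 4.99 ± 0.61 in CD8 cells, or 4.35 against CD8 WT replicate 1 alone.

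Mdm2 (chromosome 10, 117688905 to 117710716, minus strand) was at 331 and 311 TPM in CD4 KO, against 120 and 185 TPM in CD4 WT. CD8 KO libraries had 257 and 250 TPM, against 148 and 262 TPM in CD8 WT. The CD4 groups did not overlap (1.10 ± 0.35), and the CD8 groups did, since CD8 WT replicate 2 lay above both KO libraries (0.36 ± 0.35, or 0.77 against replicate 1 alone).

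Cdkn1a (chromosome 17, 29090986 to 29100722, plus strand) was at 45.1 and 30.4 TPM in CD4 KO, against 10.2 and 3.93 TPM in CD4 WT. In CD8 KO it was at 39.5 and 58.3 TPM, against 6.65 and 141 TPM in CD8 WT. Both CD8 KO libraries thus lay between the WT libraries. The CD4 difference was 2.36 ± 1.07, and the CD8 difference was 0.57 ± 1.07 with both WT libraries and 2.68 with replicate 1 alone.

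Plk2 (chromosome 13, 110395044 to 110400843, plus strand), a polo-like kinase of centriole duplication, was at 222 and 130 TPM in CD4 KO, against 12.9 and 20.6 TPM in CD4 WT. CD8 KO cells held 115 and 118 TPM, against 9.45 and 362 TPM in CD8 WT. CD8 WT replicate 2 held the highest level of the gene in the series. The differences were 3.30 ± 1.22 in CD4 cells and 0.93 ± 1.22 in CD8 cells, with 3.49 against replicate 1 alone.

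Gadd45a (chromosome 6, 67035096 to 67037407, minus strand), a stress sensor that binds PCNA and kinases of the p38 pathway, had the lowest level of the 10 in every KO library. It was at 17.2 and 18.2 TPM in CD4 KO, against 9.15 and 3.41 TPM in CD4 WT. The CD8 KO level was 11.5 and 5.54 TPM, against 5.28 and 84.9 TPM in CD8 WT. The CD4 groups did not overlap (1.48 ± 1.02). The CD8 difference was -1.36 ± 1.02 with both WT libraries and 0.53 with replicate 1 alone.

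Sesn2 (chromosome 4, 132492807 to 132510456, minus strand), a leucine sensor that inhibits mTORC1 through the GATOR2 complex, was at 122 and 110 TPM in CD4 KO, against 19.7 and 32.8 TPM in CD4 WT. CD8 KO libraries had 82.7 and 61.5 TPM, against 16.3 and 109 TPM in CD8 WT. CD8 WT replicate 2 again lay above both CD8 KO libraries. The differences were 2.14 ± 0.70 in CD4 cells and 0.73 ± 0.70 in CD8 cells, or 2.06 against replicate 1 alone.

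Sesn1 (chromosome 10, 41810574 to 41908436, plus strand), the related sestrin, was at 1007 and 1119 TPM in CD4 KO, against 923 and 1029 TPM in CD4 WT. In CD8 KO it was at 787 and 722 TPM, against 1033 and 465 TPM in CD8 WT. The groups overlapped in both lineages, with differences of 0.12 ± 0.37 in CD4 cells and 0.12 ± 0.37 in CD8 cells, or -0.45 against replicate 1 alone.

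Btg2 (chromosome 1, 134074865 to 134079155, minus strand), which recruits the deadenylase that shortens mRNA tails and keeps T cells quiescent, was at 1034 and 1250 TPM in CD4 KO, against 1290 and 1241 TPM in CD4 WT. CD8 KO cells held 753 and 762 TPM, against 1034 and 664 TPM in CD8 WT. It also overlapped in both lineages, with differences of -0.15 ± 0.30 and -0.13 ± 0.30, and -0.45 for CD8 against replicate 1 alone. With median-of-ratios scaling, under which the median CD4 difference of all genes was 0.03 in place of -0.16, the CD4 difference of Btg2 was 0.07, so its direction depends on the scaling, while the other 9 kept theirs.

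**Figure D3:**
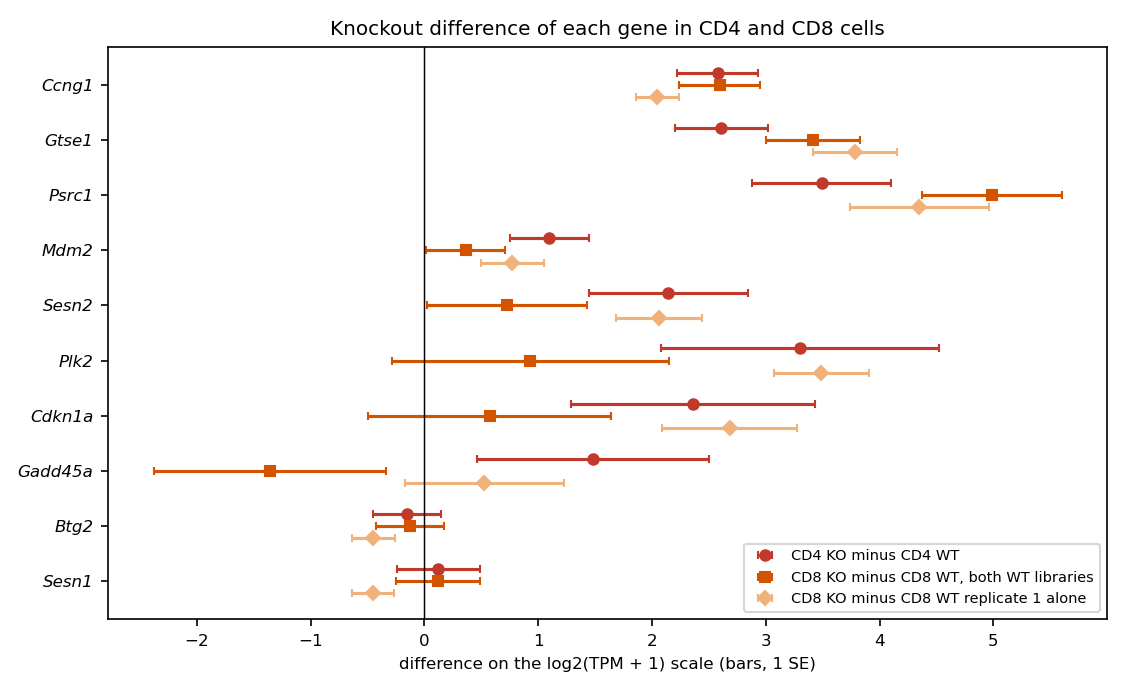
Difference of KO minus WT for each gene on the log2(TPM + 1) scale, with bars of 1 SE; circles are CD4 cells, squares CD8 cells with both WT libraries and diamonds CD8 cells with CD8 WT replicate 1 alone. In CD8 cells Plk2 is at 0.93 with both WT libraries and 3.49 with replicate 1 alone, and Cdkn1a at 0.57 and 2.68, while Ccng1, Gtse1 and Psrc1 lie above 2 in every fit.

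Over the members, the KO-to-WT difference in CD4 cells had a median of 2.25, with 9 of 10 above 0, against a median of -0.16 over all 11786 genes, of which 4919 were above 0. In the limma fit 3 of 10 were called higher (Ccng1, Gtse1 and Psrc1), against 0.187% of all genes called higher and 0.713% called in either direction, and 8 of 10 lay above WT without overlap, against 21.7% of all genes. In CD8 cells the median was 0.65, or 2.05 with CD8 WT replicate 1 alone, and 3 of 10 were called higher (Ccng1, Gtse1 and Psrc1, against 0.11%), which were also the 3 of 10 without overlap (against 23.0%). With replicate 1 alone the 3 called were Ccng1, Gtse1 and Plk2 (against 0.17%), and Psrc1 was not called. Both CD8 KO libraries lay above replicate 1 for 8 of 10 members (against 32.4%) and below it for Btg2 and Sesn1 (against 41.0%). Because these contrasts chose the list, the counts describe it and are not evidence for it. Leaving out any 1 of the CD4 libraries or of the CD8 KO libraries left 0 members called in CD4 cells, while 7 were called higher without CD8 WT replicate 1 (against 6.43% of all genes called in either direction) and 7 without replicate 2 (against 6.52%). In CD8 cells the count was 0 without any 1 of the CD4 or CD8 KO libraries. It was 6 without CD8 WT replicate 1 (against 15.6% of all genes), of which Ccng1, Gtse1, Psrc1 and Sesn1 were called higher and Plk2 and Gadd45a lower (-1.63 and -3.25). Plk2 was thus called in opposite directions according to which CD8 WT library was kept.

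How far the CD8 contrast depends on its WT libraries can be read from each gene. CD8 WT replicate 2 stood 38.3 times above replicate 1 for Plk2, 21.2 times for Cdkn1a, 16.1 times for Gadd45a and 6.68 times for Sesn2. It was 1.85 times as high for Gtse1 and 1.77 times for Mdm2, and lower for Btg2 (0.642 times), Ccng1 (0.465), Sesn1 (0.450) and Psrc1 (listed at 0). With replicate 2 alone as wild type, the CD8 difference had the opposite sign to that with replicate 1 alone for 7 of 10 members: it was -1.54 for Cdkn1a, -1.63 for Plk2, -0.61 for Sesn2, -0.05 for Mdm2, -3.25 for Gadd45a, 0.19 for Btg2 and 0.70 for Sesn1. For Ccng1, Gtse1 and Psrc1 it kept its sign (3.14, 3.05 and 5.62). Of all genes, 11.4% were over 4 times higher in replicate 2, against 4 of these 10. In this library the 25 immediate early genes, such as Fos, also summed to 15090 TPM, against 3526 TPM in replicate 1 (25 of 25 higher), the 20 mitotic genes to 849 against 92.7 TPM (20 of 20 higher), and the 14 ATF4 response genes to 3091 against 766 TPM (12 of 14 higher). The part of the other cell types, the immediate early genes and the ATF4 genes in these levels was not tested. The same lists were also high in CD4 KO: immediate early genes summed to 9294 and 8660 TPM, against 3714 and 3512 TPM in CD4 WT, and ATF4 genes to 1926 and 1646 TPM, against 881 and 1028 TPM in CD4 WT. In CD8 KO the immediate early genes summed to 4307 and 4700 TPM, against 3526 TPM in CD8 WT replicate 1.

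**Figure D4:**
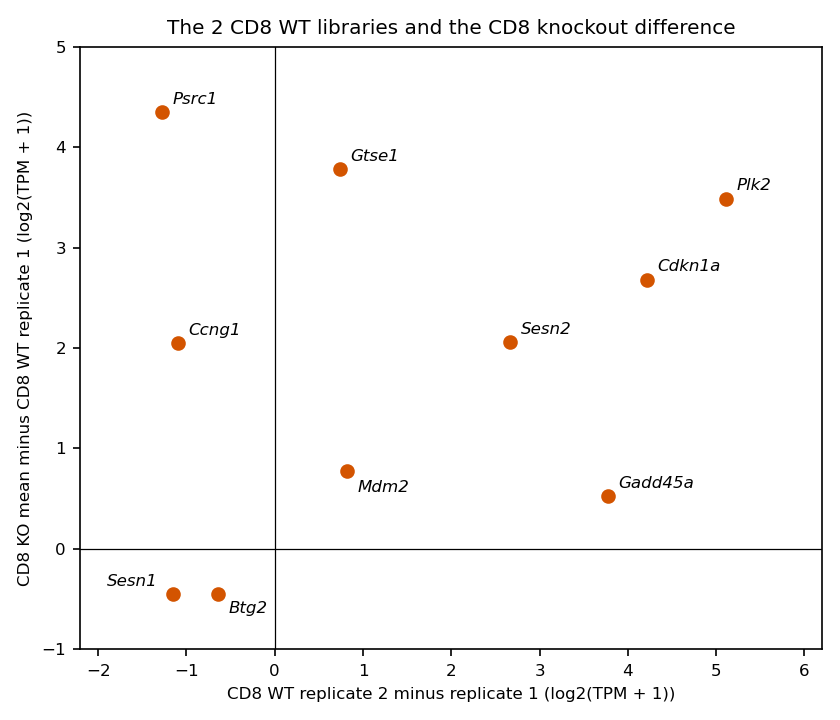
Each point is 1 of the 10 genes; the x axis is CD8 WT replicate 2 minus replicate 1 and the y axis the mean of the CD8 KO libraries minus CD8 WT replicate 1, both on the log2(TPM + 1) scale. Plk2, Cdkn1a, Gadd45a and Sesn2 lie far to the right, while Psrc1, Ccng1, Btg2 and Sesn1 lie left of 0; both axes share CD8 WT replicate 1, so no correlation is drawn from the plot.

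CD8 KO and CD4 KO cells were compared next. The list was chosen on KO minus WT differences, which hold these same KO values, so the counts here describe the members and are not independent of that choice. By limma 0 of 10 members were called, against 0.28% of all genes, and 0 had an unadjusted p under 0.05, against 1122 of all 11786 genes. Both CD8 KO libraries nevertheless lay below both CD4 KO libraries for 8 of 10 members, all but Cdkn1a and Psrc1, against 25.8% of all genes. These 8 genes come from the same 4 libraries and are not independent. Ccng1 averaged 549 TPM in CD8 KO and 936 TPM in CD4 KO, a difference of -0.77 (95% interval -1.57 to 0.03, limma adjusted p = 0.538). The spread behind this and the following intervals was shared by all 4 groups, CD8 WT included, so it is not that of the KO libraries alone. Btg2 differed by -0.59 (-1.25 to 0.08), Sesn2 by -0.69 (-2.27 to 0.88) and Gadd45a by -1.05 (-3.33 to 1.23). For Psrc1 the interval ran from -1.28 to 1.47 around 0.10, and for Cdkn1a from -2.03 to 2.76 around 0.37, so both intervals hold differences of over 2-fold in either direction. With median-of-ratios scaling 2 members had an unadjusted p under 0.05 by limma, Ccng1 at -0.79 (95% interval -1.40 to -0.17) and Btg2 at -0.61 (-1.07 to -0.14), and 0 were called (both adjusted p = 0.321).

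Among wild-type cells, CD8 WT and CD4 WT differed by -1.15 for Gtse1 (95% interval -2.07 to -0.23) and by -1.40 for Psrc1 (-2.78 to -0.03). The list was chosen on KO minus WT differences, which hold these same WT values, so the figures here describe the members and are not independent of that choice. Neither Gtse1 nor Psrc1 passed by limma (adjusted p = 0.495 and 0.570), and 0 of 10 members were called, against 0.195% of all genes. At an unadjusted p under 0.05 by limma there were 2 members, against 1022 of all 11786 genes. Ccng1, Gtse1, Psrc1 and Btg2 were lower in both CD8 WT libraries than in both CD4 WT libraries, against 24.8% of all genes. With median-of-ratios scaling, under which the median of all genes was 0.02 in place of -0.26, Gtse1 stood at -0.87 and Psrc1 at -1.29, with 0 members at an unadjusted p under 0.05 by limma. Without CD8 WT replicate 1, 7 members were called (against 13.8% of all genes), Cdkn1a, Gadd45a, Plk2 and Sesn2 higher in CD8 WT and Ccng1, Btg2 and Sesn1 lower. Without CD8 WT replicate 2, Gtse1 stood at -1.52 and Psrc1 at -0.76, with 0 members called (against 0.611%).

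The KO effect itself was then compared between lineages, as the CD8 difference minus the CD4 difference. It is built from the differences used in choosing the list, so for the members it is a description. No member was called, 0 of all genes were called (0.0%), and at an unadjusted p under 0.05 there were 0 members and 819 genes by limma. For Ccng1 the difference between effects was 0.02 (95% interval -1.11 to 1.15). For Gadd45a it was -2.84 (-6.07 to 0.38), and without CD8 WT replicate 2 it was -0.96. Without CD8 WT replicate 1, which leaves replicate 2 to stand for wild type, Plk2, Cdkn1a, Gadd45a and Sesn2 were called with a lower CD8 effect (adjusted p = 0.00657, 0.0252, 0.0235 and 0.0218), against 9.74% of all genes called, so this comparison turns on which WT library is kept.

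The family relatives of the members were not used by the rule that chose the list, and their KO-to-WT differences were compared by limma. They too were chosen with earlier results of these data known, so the p-values are not an independent test. Of 12 relatives 11 passed the filter (Cdkn1c averaged 0.507 TPM). With all 8 libraries kept, 0 were called in either lineage, against 84 and 35 of all 11786 genes. Which relatives were called changed when a CD8 WT library was left out, Gadd45b among them. By limma 2 in the CD4 and 5 in the CD8 contrast had an unadjusted p under 0.05, against 1967 and 1778 of all genes. Their median difference was 0.37 in CD4 cells and -0.13 in CD8 cells, or 0.54 against CD8 WT replicate 1 alone. Gadd45b, a stress-induced relative of Gadd45a, was at 388 and 388 TPM in CD4 KO, against 42.9 and 48.9 TPM in CD4 WT. The CD8 KO level was 78.1 and 61.0 TPM, against 14.8 and 371 TPM in CD8 WT. It had a CD4 difference of 3.06 ± 1.08 (limma adjusted p = 0.196). The CD8 difference of Gadd45b was -0.13 with both WT libraries, 2.15 with replicate 1 alone and -2.41 with replicate 2 alone. Its sign in CD8 cells thus rested on which WT library was kept. Cdkn1b, which encodes the kinase inhibitor p27, was at 191 and 172 TPM in CD4 KO, against 97.4 and 98.9 TPM in CD4 WT (0.88, adjusted p = 0.237). CD8 KO libraries had 98.0 and 145 TPM, against 81.5 and 49.0 TPM in CD8 WT (0.90, limma adjusted p = 0.272, or 0.54 with replicate 1 alone). Both lineages had KO above WT without overlap for Cdkn1b, Ccng2 and Sesn3. In CD4 cells 5 of 11 relatives lay so, against 21.7% of all genes, and in CD8 cells 3 of 11, against 23.0%. Ccng2, the other cyclin G, was at 0.79 in CD4 and 0.94 in CD8 cells (adjusted p = 0.376 and 0.330), and Sesn3, a sestrin driven by FoxO factors in other cells, at 0.85 and 0.56 (adjusted p = 0.410 and 0.599). With replicate 1 alone the CD8 differences were 0.93 for Ccng2 and 0.87 for Sesn3. Mdm4, the partner of Mdm2 in holding p53 back, had differences of -0.37 and 0.09 (adjusted p = 0.599 and 0.919), and 0.21 in CD8 cells with replicate 1 alone. For Btg1, a relative of Btg2, they were 0.04 and -1.04 (adjusted p = 0.963 and 0.175), and -0.84 with replicate 1 alone. The other relatives, Btg3, Gadd45g, Plk1, Plk3 and Plk4, had CD4 differences between -0.61 and 0.41. In CD8 cells Plk3 stood at -3.13 (-1.50 with replicate 1 alone) and Plk4 at -1.18 (-0.88), both among the 5 with an unadjusted p under 0.05. Gadd45g stood at -0.64, at 2.18 with replicate 1 alone and at -3.46 with replicate 2 alone. Btg3 stood at -0.90 and Plk1 at -0.08, or at 0.001 and 0.77 with replicate 1 alone.

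Other genes around p53 put the members in context. These lists and those that follow were also chosen with earlier results of these data known, so their p-values are not an independent test. Of all 11786 genes, 41.7% were higher in CD4 KO (median -0.16) and 52.4% in CD8 KO (median 0.05). Against CD8 WT replicate 1 alone 45.1% were higher in CD8 KO (median -0.075). Of 14 p53 targets of cell death, 12 were higher in CD4 KO, with a median of 1.16, and 2 rose by limma, Phlda3 and Trp53inp1. Phlda3, an inhibitor of Akt signalling, was at 75.8 and 74.8 TPM in CD4 KO, against 2.57 and 4.95 TPM in CD4 WT (4.05 ± 0.58, adjusted p = 0.0301). In CD8 KO it was at 14.3 and 38.6 TPM, and both CD8 WT libraries listed the gene at 0 (adjusted p = 0.0233, or 0.0521 without CD8 WT replicate 2). Trp53inp1, a nuclear cofactor of p53, was at 279 and 281 TPM in CD4 KO, against 38.1 and 67.8 TPM in CD4 WT (2.44 ± 0.36, adjusted p = 0.0318). CD8 KO cells held 186 and 149 TPM, against 34.0 and 51.9 TPM in CD8 WT (1.96, adjusted p = 0.0751, or 2.26 and 0.0580 with replicate 1 alone). Of the 14, 12 were also higher in CD8 KO, with a median of 1.19. Against CD8 WT replicate 1 alone 12 were higher (median 1.003).

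Of 12 p53 targets of repair and metabolism, 11 were higher in CD4 KO with 0 called (1 at an unadjusted p under 0.05), and 8 in CD8 KO with 1 called. That gene was Rps27l, a ribosomal protein relative induced by p53. It was at 266 and 405 TPM in CD8 KO, against 83.9 and 47.1 TPM in CD8 WT (2.36 ± 0.38, adjusted p = 0.0458, or 0.0806 without CD8 WT replicate 2). In CD4 KO it was at 306 and 226 TPM, against 113 and 77.1 TPM in CD4 WT (adjusted p = 0.114). Of 17 measured genes that encode p53 or its regulators, 8 (47.1%) were higher in each lineage, against 41.7% and 52.4% of all genes. Their medians were -0.21 in CD4 and -0.24 in CD8 cells, with 0 called (2 and 1 at an unadjusted p under 0.05 by limma, against 1967 and 1778 of all 11786 genes). Against CD8 WT replicate 1 alone 7 of the 12 targets (median 0.13) and 6 of the 17 regulators (median -0.21) were higher in CD8 KO.

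The machinery on which the members act was counted in the same way. Of all 11786 genes, 41.7% were higher in CD4 KO and 52.4% in CD8 KO. By limma 1967 and 1778 of them had an unadjusted p under 0.05. The fit took 1 spread from all 4 groups, the 2 unlike CD8 WT libraries included. With only the CD4 groups fitted, 243 of all genes were called in CD4 cells, in place of 84. A count of 0 called in CD4 cells, here or in the lists above, does not show that a list was unchanged. Of 16 genes of the G1 and S phases, 5 were higher in CD4 KO and 7 in CD8 KO, with medians of -0.10 and -0.06 and 0 called (2 and 1 at an unadjusted p under 0.05), and 9 were higher against CD8 WT replicate 1 alone (median 0.05). Of 20 mitotic genes, 17 were higher in CD4 KO (median 0.77) and 13 in CD8 KO (median 0.25), with 0 called (2 and 1 at an unadjusted p under 0.05), and against CD8 WT replicate 1 alone 20 of 20 were higher in CD8 KO (median 1.82). They were scarce, summing to 187 and 214 TPM in CD4 KO and to 108 and 87.0 TPM in CD4 WT. Of 14 genes of the GATOR and mTORC1 pathway, 4 were higher in CD4 KO and 5 in CD8 KO, with medians of -0.42 and -0.28 and 0 called (3 and 4 at an unadjusted p under 0.05), and 5 were higher against CD8 WT replicate 1 alone (median -0.52). Of 12 measured ATF4 response genes, 7 were higher in CD4 KO and 3 in CD8 KO, with medians of 0.67 and -0.31 (0.62 against CD8 WT replicate 1 alone) and 0 called (3 and 1 at an unadjusted p under 0.05). Among 24 measured immediate early genes, 22 were higher in CD4 KO (median 1.31) and 22 were lower in CD8 KO (median -1.19), though against CD8 WT replicate 1 alone 14 were higher and the median was 0.17. Of these, 0 were called in CD4 cells (8 at an unadjusted p under 0.05) and 2 fell in CD8 cells. Dusp2, a phosphatase of MAP kinases, fell to 11.4 and 15.6 TPM in CD8 KO, against 97.0 and 135 TPM in CD8 WT (-3.01 ± 0.37, adjusted p = 0.0233, or 0.0476 without CD8 WT replicate 2). Ier2 was at 88.1 and 140 TPM in CD8 KO, against 472 and 1177 TPM in CD8 WT (-2.74 ± 0.45, adjusted p = 0.0458, or 0.0730 without CD8 WT replicate 2). The calls named here and for the other p53 targets rest on every CD4 library and every CD8 KO library being kept. They were lost when any 1 of these was left out.

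Gene span moved with the KO difference across the genome. In CD4 cells the median difference was 0.17 for the 3622 genes under 10 kb, -0.47 for the 3075 genes of 30 to 100 kb and -1.12 for the 1051 genes of at least 100 kb. Of the members 6 lie under 10 kb, 3 between 10 and 30 kb, and only Sesn1, at 97.9 kb, above that. With the span trend removed, Sesn1 stood at 0.94 in CD4 cells and 0.68 in CD8 cells, and Btg2 at -0.37 in CD4 cells, while the CD4 differences of the other 8 ranged from 1.17 to 3.28. The part of span in the difference between Sesn1 and Sesn2 was not tested.

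The mean of the members' standardised values was 0.78 and 0.77 in CD4 KO, -0.52 and -0.51 in CD4 WT, 0.27 and 0.17 in CD8 KO, and -0.81 and -0.15 in CD8 WT. Among 9142 other genes averaging 5 TPM or more, those whose log2 levels followed this mean most closely over the 8 libraries were Calr (r = 0.98), Ulk1 (0.97), Mir17hg (0.97), Ssr3 (0.97) and Psd (0.97). Calr, which encodes the ER chaperone calreticulin, was at 859 and 716 TPM in CD4 KO, against 151 and 197 TPM in CD4 WT. The CD8 KO level was 398 and 462 TPM, against 161 and 276 TPM in CD8 WT. Ulk1, the kinase that starts autophagy, was at 48.1 and 46.2 TPM in CD4 KO, against 21.5 and 24.2 TPM in CD4 WT. Its CD8 groups overlapped, at 36.6 and 28.6 TPM in KO, against 20.8 and 29.7 TPM in WT. These r values describe 8 libraries that share their groups and the library that stands apart.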

How the data were processed

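Messenger RNA was measured in 8 libraries of sorted naive CD4 and CD8 T cells (4 groups of 2, from the cell type and genotype labels). Reads were aligned with HISAT to mm10, per the submitters' processing notes. The program behind the tables is not named by them. The authors deposited TPM and FPKM, both corrected for length, and a coverage signal for each gene, per the file headers; TPM was used, and read counts were not used here. Rows of a symbol were summed. The planned count test was replaced by limma 3.58.1 in R 4.3.3 on log2(TPM + 1), a scale that understates changes of low genes, for genes averaging at least 1 TPM, with an intensity trend, 1 mean per group, 4 residual degrees of freedom (prior 5.68) and Benjamini-Hochberg adjustment, called at 0.05; a group left with 1 library was assumed to vary like the others. TPM keeps no depth, so no counting interval is given. The steps were tested on simulated data. Members, lists and tests were chosen with earlier results of these data known. Genes named beyond the members were family relatives, up to 4 called genes per list, the 5 genes with the most similar pattern, and Trappc1; Trp53, Cd8a, Fos and Mpo are outside that rule. Of the list genes, 4 were not found and 6 were matched by older symbols. Alternatives covered pseudocount, filter, scaling, span trend, library weights, the groups fitted, a replicate block and leaving out each library. Python 3.11.15 (pandas 2.3.3, numpy 2.4.6) was used for the other steps.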

Additional observations from a re-analysis of the deposited data

How the results depend on the processing

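TPM holds no read counts, so the limit set by depth is not known, and with 2 libraries per group 1 library often decides a count. In CD4 KO against CD4 WT, 84 genes and 3 members were called. The counts were 0 and 0 without a filter on low values, 18 and 1 with the genomic span trend removed and 1260 and 7 with library weights. Both libraries of a group got the same weight, 0.356 in CD8 WT and 1.24 to 1.80 in the other groups. The weights thus did not single out CD8 WT replicate 2. With median-of-ratios scaling 141 genes were called, and with only the groups compared 243. Leaving out 1 library gave 0 to 768 genes and 0 to 7 members. In CD8 KO against CD8 WT, 35 genes and 3 members were called. Without a filter, with library weights and with only the groups compared the counts were 0 and 0, and with the span trend removed 21 genes were called. Leaving out 1 library gave 0 to 1842 genes and 0 to 6 members. In CD8 KO against CD4 KO, 33 genes were called, 0 without a filter, 50 with median-of-ratios scaling, 353 with library weights, 141 with only the groups compared and 1 to 153 without 1 library; 0 members were called in every setting run. In CD8 WT against CD4 WT, 23 genes were called, 1 without a filter, 15 with library weights, 0 with only the groups compared and 0 to 1629 without 1 library, with 0 to 7 members. The difference of effects gave 0 to 1148 genes and 0 to 4 members without 1 library; the 7 and the 4 members came without CD8 WT replicate 1. Where a setting changed a count, the cause was not tested.

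The replicate numbers are shared across groups, but the labels do not say that they pair libraries, and deviations of same-numbered libraries correlated at -0.04 to 0.09. With a replicate block, 29 genes and 1 member were called in CD4 KO against CD4 WT, 26 and 3 in CD8 KO against CD8 WT, 24 and 0 in CD8 KO against CD4 KO, 26 and 0 in CD8 WT against CD4 WT, and 0 and 0 for the difference of effects.

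Some members' differences changed sign. In CD8 KO against CD8 WT, Cdkn1a, Plk2, Sesn2, Mdm2 and Btg2 turned without CD8 WT replicate 1, and Gadd45a and Sesn1 without replicate 2, with the values given above. In CD8 KO against CD4 KO, that of Psrc1 ranged from -0.17 to 0.36 as single libraries were left out. In CD8 WT against CD4 WT the ranges were -0.0123 to 0.81 for Mdm2, -0.0928 to 3.68 for Gadd45a, -0.73 to 4.39 for Plk2, -0.61 to 2.06 for Sesn2 and -1.07 to 0.0837 for Sesn1. For the difference of effects they were -3.89 to 0.32 for Cdkn1a, -4.93 to 0.19 for Plk2, -0.53 to 0.56 for Ccng1, -0.29 to 0.34 for Btg2 and -0.58 to 0.57 for Sesn1. With median-of-ratios scaling, the differences of effects of Ccng1 and Btg2 were -0.30 and -0.29.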
